A study of Homo sapiens with 24 samples.

Results

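The 10 genes described here are those that encode the enzymes of polyamine synthesis (ODC1, SRM, SMS and AMD1), the antizymes and their inhibitor (OAZ1, OAZ2 and AZIN1) and the enzymes of polyamine breakdown (SAT1, SMOX and PAOX). They were taken by name from the 58735 genes of the deposited table, and each name matched 1 row. All 10 were among the 19210 genes with enough reads to be tested. The cells were OVCAR8, an established human cancer line that the labels describe as high grade serous ovarian. They were kept in ultra-low attachment plates, in which cells cannot spread on the plastic. Their medium was a 1 to 1 mixture of the medium under study and RPMI with 5% serum. The 8 groups of 3 libraries each were named for that medium. The fresh group had medium that no cells had used. The proliferative group had medium conditioned by dividing cells given vehicle, and the senescent group had medium from cells that cisplatin had made senescent. Further groups had senescent medium that was boiled, its fraction below 3 kDa (the small fraction) or its fraction above 3 kDa (the large fraction). The last 2 groups were cells pre-treated with proliferative or with senescent medium. What came after the pre-treatment is not on the labels. Nor do they say whether the libraries of a group came from separate cultures, so that p-values measure the spread between these libraries, which may be technical. The conditioning cells were not named in the labels, and all groups were of 1 cell line.

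Polyamines (putrescine, spermidine and spermine) are small positively charged molecules that bind nucleic acids and are needed for growth. Ornithine decarboxylase, encoded by ODC1, makes putrescine from ornithine. AMD1 decarboxylates S-adenosylmethionine to give the aminopropyl donor that spermidine synthase (SRM) and spermine synthase (SMS) add in turn. Antizymes (OAZ1 and OAZ2) are translated through a frameshift that polyamines promote, bind ornithine decarboxylase, target it for degradation and curb polyamine uptake, while antizyme inhibitor 1 (AZIN1) takes antizyme away from it. In breakdown, SAT1 acetylates spermidine and spermine, PAOX oxidises the acetylated products, and SMOX oxidises spermine directly with release of hydrogen peroxide. ODC1 is a known target of the transcription factor MYC, which binds with MAX to the E-box CACGTG.

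Library totals ran from 14718120 to 21956598 counts. The cells carried transcripts of the lineage on the label: PAX8 was at 148 to 302 CPM (read counts brought to 1 depth by TMM scaling) over the 24 libraries, KRT8 at 794 to 1272 CPM and EPCAM at 13.3 to 24.1 CPM. Of genes that mark other cells, PTPRC had no count in 21 libraries, CD3E and DCN had none in 23 and LYZ had none in 16. In contrast, COL1A1 was at 1146 to 2157 CPM and PDGFRB at 40.4 to 94.0 CPM in these cells. LUM (0.951 to 5.46 CPM), PECAM1 (0.791 to 7.96 CPM) and VWF (0.448 to 3.33 CPM) were low but had counts in every library. Gene bodies are given on GRCh38, from the table. ODC1 (ENSG00000115758) lies at chr2:10439968-10448504 on the minus strand and SRM (ENSG00000116649) at chr1:11054584-11060024 on the minus strand. SMS (ENSG00000102172) lies at chrX:21940573-21994835 on the plus strand, and AMD1 (ENSG00000123505) at chr6:110874770-110895713 on the plus strand. OAZ1 (ENSG00000104904) lies at chr19:2269509-2273490 on the plus strand, and OAZ2 (ENSG00000180304) at chr15:64687573-64703281 on the minus strand. SAT1 (ENSG00000130066) lies at chrX:23783173-23786226, SMOX (ENSG00000088826) at chr20:4120980-4187747 and PAOX (ENSG00000148832) at chr10:133379234-133391694, all on the plus strand. Whether counting used strand is not given in the sources used here, but genes that overlap a member held few reads (at most 32.88 counts per library on average, at AZIN1, beside 2969 for AZIN1). The AMD1 pseudogene with the most reads, AMD1P3, averaged 5.208 counts per library beside 1121 for AMD1.

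Windows from 250 bases before to 50 bases after a transcription start were on hand for 7 of the 10 genes, from RefSeq on GRCh38.p14, and AZIN1, SMOX and PAOX had no entry. The sequences below are shown because ODC1 and SRM were the members that fell in each comparison with fresh medium and SAT1 rose in each. They run 5′ to 3′ on the gene's strand, and capitals mark the motif CACGTG, which reads the same on both strands. RefSeq lists 2 starts for ODC1. The window of the downstream start (chr2:10447963-10448262) held the motif 2 times, at 29 bases before and 6 bases after that start, and the first of these falls in intron 1 of the GENCODE gene. The first 2 sequences are the stretch before that start (chr2:10448013-10448120) and the surroundings of the second motif (chr2:10447990-10448019). The stretch before the SRM start (chr1:11060025-11060268) held the motif 1 time, 199 bases before the start, and the stretch before the SAT1 start (chrX:23782957-23783172) did not hold it.
ODC1, before the downstream start: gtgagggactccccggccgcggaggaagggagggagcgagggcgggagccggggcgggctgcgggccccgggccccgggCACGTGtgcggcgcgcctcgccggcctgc
ODC1, second motif: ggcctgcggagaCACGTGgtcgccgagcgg
SRM: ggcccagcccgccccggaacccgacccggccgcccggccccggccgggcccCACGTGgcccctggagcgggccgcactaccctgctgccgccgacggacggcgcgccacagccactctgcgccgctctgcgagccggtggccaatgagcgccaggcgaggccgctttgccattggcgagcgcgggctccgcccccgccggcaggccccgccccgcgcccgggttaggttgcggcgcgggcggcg
SAT1: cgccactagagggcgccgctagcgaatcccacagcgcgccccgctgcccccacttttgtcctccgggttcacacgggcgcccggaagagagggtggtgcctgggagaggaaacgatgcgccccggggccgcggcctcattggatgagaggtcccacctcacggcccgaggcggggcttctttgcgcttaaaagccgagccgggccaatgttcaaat
The motif was present in 2548 of the 35116 windows of 300 bases in the table (7.26%) and was present 2 or more times in 233 (0.664%). The window of the other ODC1 start and those of SMS, AMD1 (3 windows), OAZ1, OAZ2 and SAT1 held no match, which says only that these letters are not in those windows.

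Per unit of gene length, OAZ1 was the most abundant of the 10, followed by SAT1 and SMS. On the authors' FPKM scale (counts scaled for gene length and depth), the mean over all 24 libraries was 128 for OAZ1, 101 for SAT1 and 77.0 for SMS. AZIN1 (26.8), SRM (24.8) and ODC1 (20.5) were at similar FPKM levels, followed by OAZ2 (12.2) and AMD1 (9.22). The oxidases were lowest, with PAOX at 4.79 and SMOX at 3.51 FPKM. How far a gene moved between media did not follow its level: the highest group mean CPM was 3.14 times the lowest for ODC1, 2.48 times for SMOX and 1.86 times for SRM, against 1.28 times for OAZ1 and 1.22 times for PAOX.

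**Figure D1:**
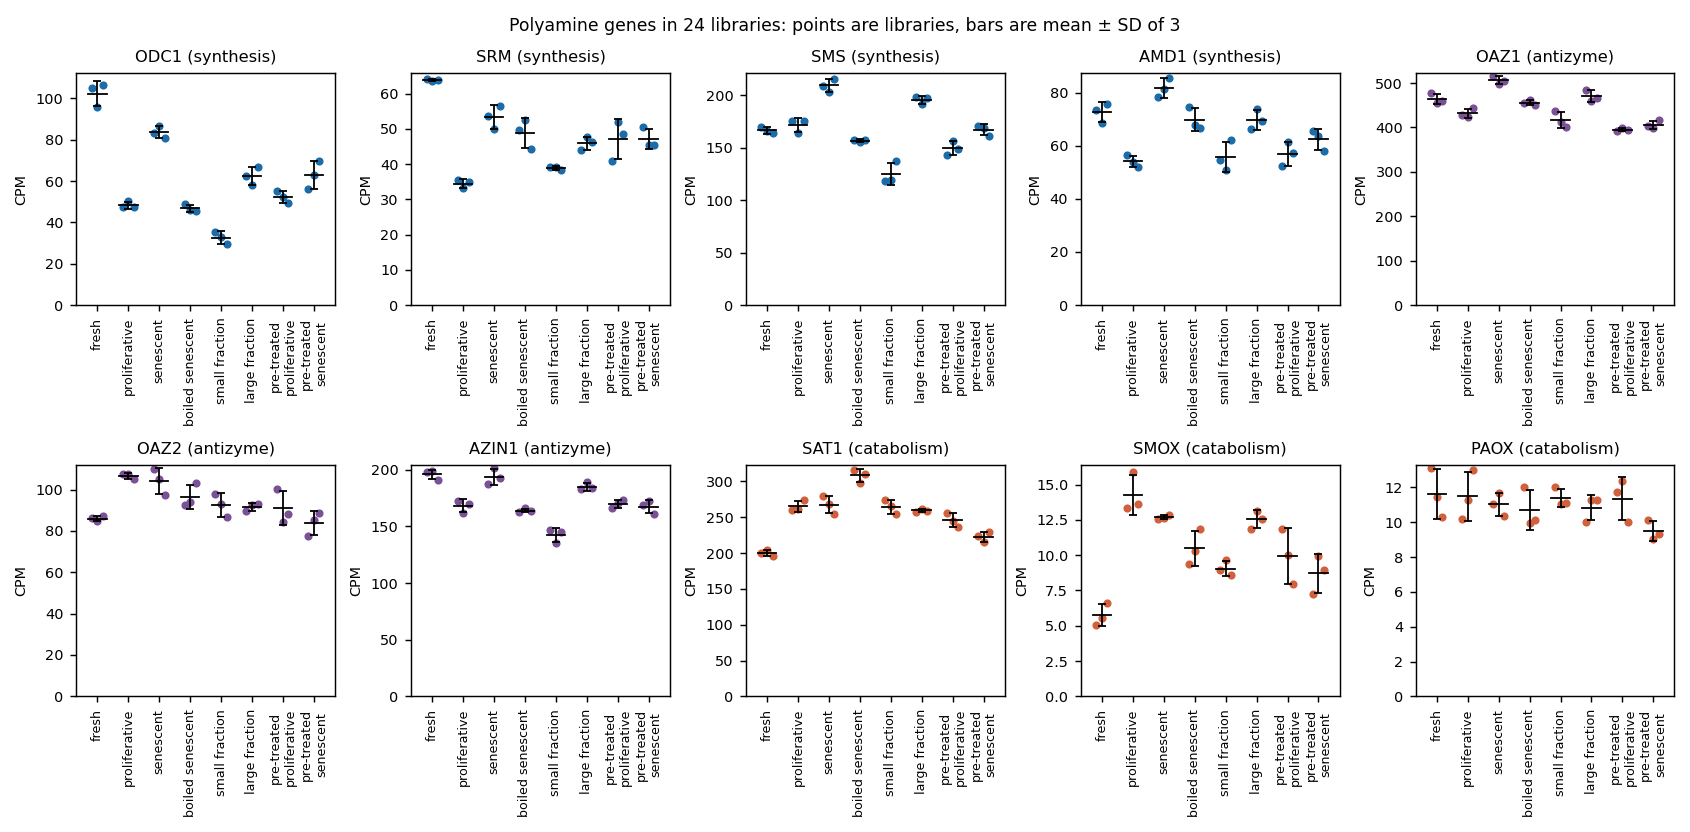
CPM of the 10 genes (one panel each, vertical axes in TMM-scaled CPM) in the 8 medium groups, with each of the 3 libraries of a group as a point and the mean and SD as bars. ODC1 and SRM are highest in fresh medium and SAT1 and SMOX lowest there, while PAOX lies between 9.03 and 13.1 CPM in all 24 libraries.

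Among the synthesis genes, ODC1 had the widest range. Its 3 libraries in fresh medium were at 105, 95.6 and 107 CPM, and in senescent medium they were at 83.5, 86.7 and 80.7 CPM. In proliferative medium they were at 47.3, 50.2 and 47.3 CPM. The fresh, senescent and proliferative values did not overlap, and senescent medium lay between the others. Boiled senescent medium (48.9, 46.0 and 45.7 CPM) was close to proliferative medium, and the small fraction was lowest at 35.5, 32.8 and 29.5 CPM. The large fraction held 62.4, 58.3 and 66.6 CPM. Pre-treated cells had 55.4, 52.3 and 49.3 CPM after proliferative medium and 56.1, 63.0 and 69.9 CPM after senescent medium. In the order of group means, from the small fraction up through boiled, proliferative, pre-treated proliferative, large, pre-treated senescent, senescent and fresh, 4 of the 7 steps between neighbours passed the test of edgeR (adjusted p = 3.18e-07 for small to boiled, 0.00482 for pre-treated proliferative to large, 5.24e-06 for pre-treated senescent to senescent and 0.000609 for senescent to fresh). The other steps did not (adjusted p = 0.736, 0.252 and 0.914 in ascending order). At the 4 steps that passed, 29%, 24.4%, 42.1% and 33.6% of all genes tested were called. The order was set from the same group means that the steps compare.

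SRM, which makes spermidine, was at 64.2, 63.6 and 63.9 CPM in fresh medium, a spread of under 1 CPM. It was at 35.4, 33.1 and 34.8 CPM in proliferative medium and at 53.7, 49.9 and 56.6 CPM in senescent medium, with no overlap among the 3 groups. The small fraction (39.3, 39.1 and 38.2 CPM) was the next lowest after proliferative medium, and this step was not called by edgeR (adjusted p = 0.0924). The large fraction, both pre-treated groups and boiled medium had group means of 45.9 to 48.9 CPM, and no step between neighbours in that stretch was called (adjusted p = 0.704 to 0.994 by edgeR). The libraries of the pre-treated proliferative group were spread from 40.9 to 52.1 CPM.

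SMS, which makes spermine, had another order, with its highest values in senescent medium (209, 203 and 216 CPM) and in the large fraction (199, 191 and 197 CPM). Its lowest values were in the small fraction (118, 119 and 137 CPM), below every library of the other 7 groups. Fresh (164 to 169.8 CPM) and proliferative medium (164 to 176 CPM) overlapped. AMD1 was at 78.2, 81.3 and 85.5 CPM in senescent medium, above all other libraries, and at 56.4, 53.7 and 52.1 CPM in proliferative medium. Fresh medium gave 73.6, 68.4 and 75.8 CPM of AMD1, and boiled medium (74.8, 67.9 and 66.8 CPM) and the large fraction (66.1, 73.6 and 69.2 CPM) overlapped with it. In the small fraction AMD1 was at 54.5, 50.9 and 62.0 CPM.

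The antizyme genes moved within narrow limits. OAZ1 lay between 392 and 516 CPM in all 24 libraries, with the highest group mean in senescent medium (516, 498 and 505 CPM) and the lowest in the pre-treated groups (392 to 416 CPM). OAZ2 was at 86.3, 84.6 and 87.0 CPM in fresh medium and at 107, 107 and 105 CPM in proliferative medium, which did not overlap. In senescent medium OAZ2 was at 109.9, 105 and 97.5 CPM. AZIN1 (ENSG00000155096, chr8:102826357-102893864 on the minus strand), the antizyme inhibitor, was at 198, 199 and 191 CPM in fresh medium, 187, 201 and 193 CPM in senescent medium and 173, 162 and 170.0 CPM in proliferative medium. Its lowest values were in the small fraction (147, 135 and 145 CPM), below every other library. Over the 8 group means on the log2 CPM scale, Pearson's r with ODC1 was 0.945 for AZIN1 and 0.81 for SRM, and these are descriptions over 8 points that share libraries and depth.

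Of the breakdown genes, SAT1 and SMOX were lowest in fresh medium. SAT1 was at 199.9, 204 and 196 CPM there, below every library of the other 7 groups. It was at 260.2, 261 and 274 CPM in proliferative medium, 279.6, 269 and 255 CPM in senescent medium, and 274, 266 and 254 CPM in the small fraction, and these 3 groups overlapped. The large fraction gave 258, 261 and 259 CPM, and the pre-treated groups gave 236 to 256 CPM (proliferative) and 215 to 229 CPM (senescent). Boiled medium had the highest values, 316, 298 and 311 CPM, above all other libraries. In the order of the group means, the step from fresh medium to its neighbour (adjusted p = 0.00424) and that from senescent to boiled medium (adjusted p = 0.000199) were called by edgeR, and the 5 steps between were not. At the called steps, 30.2% and 25.9% of all genes tested were called.

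SMOX was weakly expressed and was at 5.09, 5.53 and 6.6 CPM in fresh medium, again below every other library. It was at 13.3, 15.9 and 13.6 CPM in proliferative medium, 12.6, 12.7 and 12.8 CPM in senescent medium and 11.9, 13.2 and 12.6 CPM in the large fraction. Boiled medium (9.37, 10.3 and 11.8 CPM), the small fraction (8.93, 9.62 and 8.57 CPM) and the pre-treated groups (7.24 to 11.9 CPM) lay between these and fresh medium. PAOX, the peroxisomal oxidase, had group means from 9.49 CPM (pre-treated with senescent medium) to 11.6 CPM (fresh), and no step in its order was called by edgeR (adjusted p = 0.338 to 0.979).

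In each of the 7 other groups ODC1 and SRM were lower, and SAT1 and SMOX higher, than in fresh medium by the test of edgeR. These 7 comparisons share the same 3 fresh libraries. Cell markers differed from fresh medium as well. The mean of PAX8 was 155 CPM in fresh medium and 187 to 283 CPM in the other groups. The epithelial sum of PAX8, EPCAM, KRT7, KRT8 and KRT18 was 1882 to 1971 CPM in fresh medium and 1510 to 2459 CPM in the others. The fibroblast sum of COL1A1, DCN, LUM and PDGFRB was 2091 to 2220 CPM in fresh medium and 1212 to 2203 CPM in the others. The part of these shifts in the comparisons with fresh medium was not tested. With proliferative medium, ODC1 fell by 1.09 ± 0.07 (log2 fold change ± approximate SE, 3 libraries per group, adjusted p = 5.2e-17), which is 0.471 times the fresh level. SRM fell by 0.89 ± 0.07 and AMD1 by 0.42 ± 0.07, AZIN1 fell by 0.22 ± 0.04 and OAZ1 fell by 0.10 ± 0.04. SMOX rose by 1.31 ± 0.14 (adjusted p = 2.38e-10), SAT1 by 0.41 ± 0.04 (adjusted p = 9.2e-11) and OAZ2 by 0.31 ± 0.06. SMS (0.04, 95% interval -0.05 to 0.14) and PAOX (-0.02, interval -0.27 to 0.22) did not pass. So 3 of the 10 rose and 5 fell, a count to set beside a background of 42.2% of all genes tested that were called (20.6% rose and 21.5% fell). The median change of the 4 synthesis genes was -0.66, that of the 3 breakdown genes was 0.41 and that of all genes tested was 0.0046. The fall of OAZ1 lost its call without fresh library 1, proliferative library 1 or proliferative library 2 (adjusted p = 0.0748 to 0.111), and with no low-count filter (adjusted p = 0.18).

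**Figure D2:**
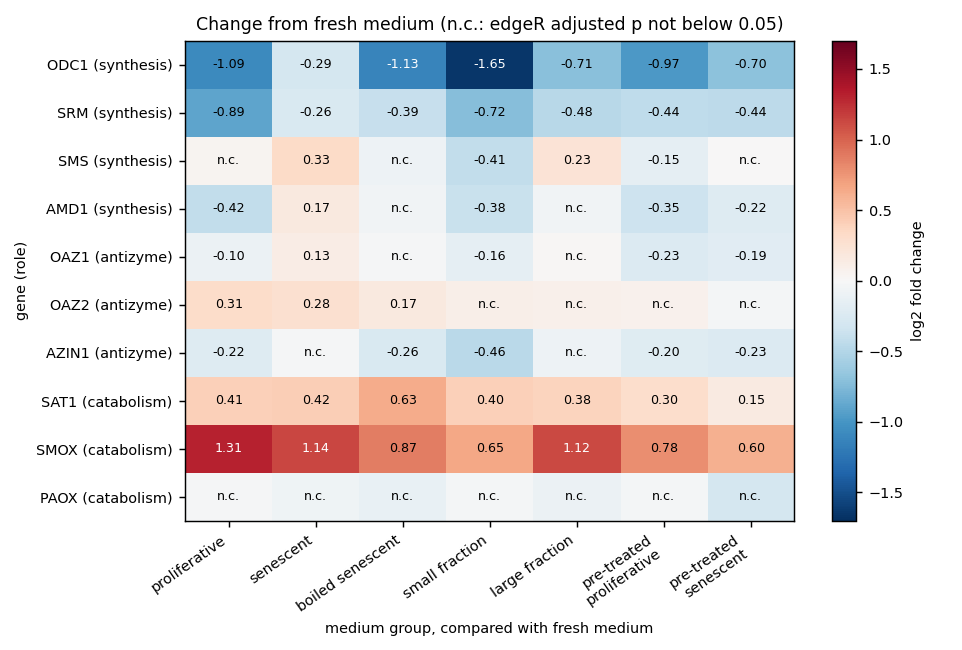
Log2 fold changes of the 10 genes (rows) in the 7 other groups against fresh medium (columns), as colour and number; n.c. marks a change that edgeR did not call. The ODC1 and SRM rows are negative and the SAT1 and SMOX rows positive in all 7 columns, and the PAOX row holds no call.

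With senescent medium the falls were smaller, and other synthesis genes rose. ODC1 fell by 0.29 ± 0.07 against fresh medium (adjusted p = 0.000609) and SRM by 0.26 ± 0.07 (adjusted p = 0.00412). SMS rose by 0.33 ± 0.05, OAZ2 by 0.28 ± 0.06, OAZ1 by 0.13 ± 0.04 and AMD1 by 0.17 ± 0.07, the last at an adjusted p of 0.0493. SAT1 rose by 0.42 ± 0.04 and SMOX by 1.14 ± 0.14. In all, 6 members rose and 2 fell by edgeR, where 33.6% of all genes tested were called (18.2% rose and 15.5% fell). The AMD1 call was lost without fresh library 1 or 2 or senescent library 2 or 3 (adjusted p = 0.0797 to 0.197). It was also lost with DESeq2 (adjusted p = 0.0759), limma (0.0873) and RLE factors (0.0515), and with library totals (0.097, adjusted p = 0.283). The OAZ1 call was lost with library totals in place of TMM factors (0.05, adjusted p = 0.25) and with the trend on gene length removed (0.07, adjusted p = 0.144). With library totals, the share of rises among the called genes was 38.7%, against 54% with TMM factors.

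The preparations of senescent medium kept the fall of ODC1 and the rise of SAT1 against fresh medium. ODC1 fell by 1.13 ± 0.07 with boiled medium (adjusted p = 2.72e-17), by 1.65 ± 0.07 with the small fraction (adjusted p = 1.41e-22) and by 0.71 ± 0.07 with the large fraction (adjusted p = 1.58e-11). SRM fell by 0.39, 0.72 and 0.48 in the same order (SE 0.07 each). SAT1 rose by 0.63, 0.40 and 0.38 (SE 0.04 each) and SMOX by 0.87, 0.65 and 1.12 (SE 0.14 to 0.15). Boiled medium gave 3 rises and 3 falls among the members (27.9% of all genes tested were called, 14% rose and 13.9% fell), the small fraction 2 and 6 (44.6%, with 22.1% that rose and 22.5% that fell) and the large fraction 3 and 2 (26.9%, with 13.9% that rose and 13% that fell). All 4 synthesis genes fell with the small fraction, where SMS fell by 0.41 ± 0.05, AMD1 by 0.38 ± 0.07 and AZIN1 by 0.46 ± 0.04. SMS rose by 0.23 ± 0.05 with the large fraction. The third rise with boiled medium, OAZ2 at 0.17 ± 0.06, lost its call without boiled library 3 or any 1 of the fresh libraries (adjusted p = 0.0563 to 0.218), and with library totals (0.0532) or limma (0.0617). For the large fraction, the share of rises among the called genes was 39.9% with library totals against 51.5% with TMM factors.

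Between the conditioned media, the genes of synthesis differed and those of breakdown were not called. All 4 synthesis genes rose with senescent against proliferative medium: ODC1 by 0.79 ± 0.07 (adjusted p = 4.59e-12, 1.73 times), SRM by 0.63 ± 0.07 (adjusted p = 7.06e-09, 1.55 times), AMD1 by 0.59 ± 0.07 (adjusted p = 4.43e-09, 1.51 times) and SMS by 0.29 ± 0.05 (adjusted p = 6.51e-06, 1.22 times). OAZ1 rose by 0.23 ± 0.04 and AZIN1 by 0.20 ± 0.04. The other 4 members were not called: SAT1 at 0.01 (95% interval -0.07 to 0.10), SMOX at -0.17 (-0.43 to 0.09), OAZ2 at -0.03 (-0.15 to 0.09) and PAOX at -0.05 (-0.30 to 0.19). The 6 rises and 0 falls stand beside 16.6% of all genes tested that rose and 12.4% that fell (29% called). The median change was 0.61 for the synthesis genes, -0.05 for the breakdown genes and -0.01 for all genes tested.

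Other features of the libraries moved with senescent medium. In its 3 libraries, the deviation of a gene from its mean over all libraries was correlated with gene length (r = -0.396, -0.39 and -0.271 over 10338 genes), against -0.122 to -0.0715 in proliferative medium. With this trend removed, the 6 rises kept their calls, with 0.76 for ODC1, 0.60 for SRM, 0.61 for AMD1, 0.25 for SMS, 0.20 for OAZ1 and 0.21 for AZIN1. The summed level of the epithelial markers, most of it KRT8, was 2142 to 2167 CPM in senescent and 1785 to 1835 CPM in proliferative medium. The means of KRT7, KRT8, KRT18 and EPCAM went with the sum, but that of PAX8 was lower in senescent medium (187 against 200 CPM). The sum of the fibroblast markers, most of it COL1A1, was 1212 to 1272 CPM against 1674 to 1688 CPM. The leukocyte markers summed to at most 0.0677 CPM in both groups. The endothelial markers summed to 3.63 to 4.83 CPM in senescent and 4.46 to 5.59 CPM in proliferative medium, and the part of these shifts in the results was not tested. In bulk RNA, fewer cells of a kind and less RNA per cell cannot be told apart. With library totals, 38.2% of the called genes rose, against 57.1% with TMM factors.

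Each preparation of senescent medium was then set against intact senescent medium, which served all 3 comparisons. With boiled medium ODC1 fell by 0.84 ± 0.07 (adjusted p = 7.26e-13, 0.56 times), SMS by 0.42 ± 0.05, AZIN1 by 0.24 ± 0.04, AMD1 by 0.23 ± 0.07 and OAZ1 by 0.15 ± 0.04. SRM (-0.13, 95% interval -0.28 to 0.01) and SMOX (-0.27, interval -0.53 to -0.00072, adjusted p = 0.139) were not called. SAT1 rose by 0.20 ± 0.04 (adjusted p = 0.000199), so 1 member rose and 5 fell where 25.9% of all genes tested were called (11.2% rose and 14.7% fell). The AMD1 call was lost without boiled library 3 or senescent library 3 (adjusted p = 0.0522 to 0.0608), and with library totals (0.0508). With library totals the share of rises among called genes was 56.8%, against 43.3% with TMM factors.

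Of the 3 preparations, the small fraction had the lowest group means of all 4 synthesis genes, while over all 8 groups SRM and AMD1 had their lowest means in proliferative medium. Against intact senescent medium, ODC1 fell by 1.36 ± 0.07 (adjusted p = 8.81e-20, 0.389 times), SMS by 0.74 ± 0.05 (adjusted p = 5.43e-17), AMD1 by 0.55 ± 0.07, SRM by 0.46 ± 0.07 and AZIN1 by 0.44 ± 0.04. SMOX fell by 0.49 ± 0.13 (adjusted p = 0.00289), OAZ1 by 0.28 ± 0.04 and OAZ2 by 0.17 ± 0.06, while SAT1 was at -0.02 (95% interval -0.10 to 0.07). Thus 8 members fell and 0 rose, where 42.6% of all genes tested were called (19.9% rose and 22.7% fell). The OAZ2 call was lost without senescent library 1 or small library 3 (adjusted p = 0.109 to 0.115), and with library totals the change was -0.085 (adjusted p = 0.247). With library totals 61% of the called genes rose, against 46.8% with TMM factors.

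With the large fraction, the level of ODC1 fell by 0.42 ± 0.07 against intact senescent medium (adjusted p = 1.12e-05, 0.747 times), and this call held without any 1 library. AMD1 (-0.23 ± 0.07), SRM (-0.22 ± 0.07), OAZ2 (-0.19 ± 0.06) and OAZ1 (-0.11 ± 0.04) also fell, so 5 members fell and 0 rose, beside 18.1% of all genes tested that were called (8.14% rose and 10% fell). Calls other than that of ODC1 depended on single libraries. The AMD1 call was lost without large library 1 or senescent library 3 (adjusted p = 0.0631 to 0.0774). The SRM call was lost without large library 1 or 3 or senescent library 1 or 3 (0.0588 to 0.136), with library totals (0.0619) and with the length trend removed (-0.13, adjusted p = 0.261). The OAZ2 call was lost without large library 1 or 2 or senescent library 1 or 2 (adjusted p = 0.0541 to 0.152), and with library totals (0.0513) or limma (0.0611). The OAZ1 call was lost without large library 2 or 3 or any 1 senescent library (adjusted p = 0.0519 to 0.155). It was also lost with library totals (adjusted p = 0.12), the compared groups only (0.0618), no low-count filter (0.136) and the length trend removed (-0.057, adjusted p = 0.304). SMS was at -0.10 (95% interval -0.19 to -0.0012, adjusted p = 0.161) and SAT1 at -0.05 (interval -0.13 to 0.04).

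**Figure D3:**
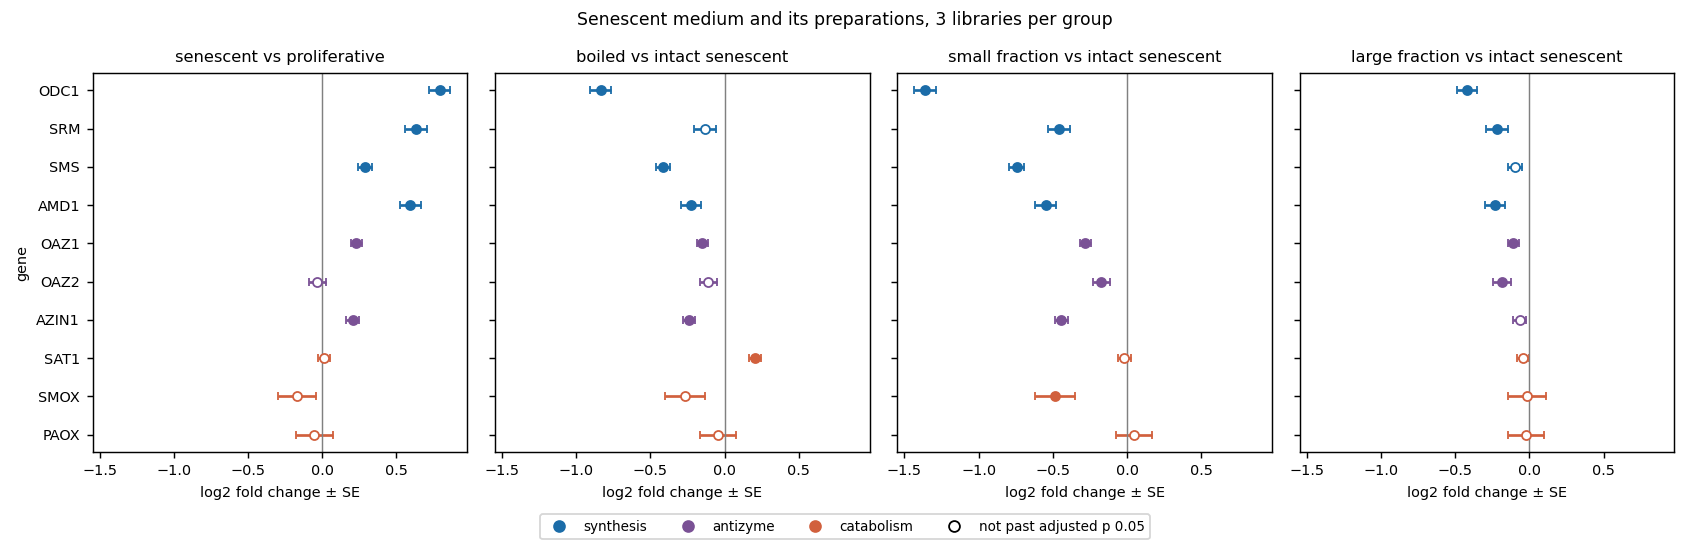
Log2 fold changes with approximate SE of the 10 genes (rows) in 4 comparisons (panels): senescent against proliferative medium, and boiled medium, the small fraction and the large fraction against intact senescent medium; open symbols were not called by edgeR. ODC1 lies at 0.79 in the first panel and at -0.84, -1.36 and -0.42 in the others, and SAT1 lies above 0 with a call in the boiled panel (0.20).

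Set against the large fraction, the small fraction had lower ODC1 (-0.94 ± 0.07, adjusted p = 1.93e-14), SMS (-0.65 ± 0.05, adjusted p = 4.9e-15), AZIN1 (-0.38 ± 0.04), AMD1 (-0.32 ± 0.07), SRM (-0.24 ± 0.07) and OAZ1 (-0.17 ± 0.04). SMOX was lower as well (-0.47 ± 0.13, adjusted p = 0.00426). In total 7 members fell and 0 rose by edgeR, where 35% of all genes tested were called (16.8% rose and 18.3% fell). For ODC1, SMS and AZIN1 the libraries of the small fraction lay below those of the large fraction, with gaps larger than the spread within either. The markers moved too: the epithelial sum was 1510 to 1598 CPM in the small and 2404 to 2459 CPM in the large fraction, and the fibroblast sum 1896 to 2110 CPM against 1702 to 1801 CPM. In boiled medium these sums were 1699 to 1867 CPM and 2124 to 2164 CPM, beside 2142 to 2167 CPM and 1212 to 1272 CPM in intact senescent medium. Against the epithelial sum, the mean of PAX8 was higher in boiled (199 CPM) than in intact senescent medium (187 CPM), while the other epithelial markers were lower. Against the fibroblast sum, most of it COL1A1, the mean of PDGFRB was lower in boiled (58.2 CPM) than in intact senescent medium (65.4 CPM). The means of COL1A1 (2081 against 1178 CPM) and LUM (4.86 against 2.92 CPM) went with that sum. The leukocyte markers summed to at most 0.246 CPM over these 4 groups. The endothelial sum was 5.57 to 9.82 CPM in boiled and 3.63 to 4.83 CPM in intact senescent medium. It was 4.62 to 5.67 CPM in the small and 5.56 to 6.21 CPM in the large fraction. By group means, PECAM1 went with this sum in boiled against senescent medium (5.86 against 2.50 CPM) and VWF did not (1.61 against 1.81 CPM). Between the fractions, small against large, PECAM1 was at 2.45 against 4.12 CPM and VWF at 2.68 against 1.66 CPM. The part of these marker shifts in the results on the preparations was not tested. With library totals the share of rises among called genes was 60.4%, against 47.8% with TMM factors, and the SRM call was lost (adjusted p = 0.0543).

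In pre-treated cells the members differed little between the conditioned media. Against fresh medium, ODC1 was lower by 0.97 ± 0.07 after proliferative and by 0.70 ± 0.07 after senescent medium (log2 fold changes of -0.97 and -0.70), and SRM by 0.44 ± 0.07 after both (log2 fold change -0.44). SMOX was raised by 0.78 ± 0.15 and 0.60 ± 0.15 and SAT1 by 0.30 ± 0.04 and 0.15 ± 0.04. After proliferative medium, 2 members rose and 6 fell (31.8% of all genes tested were called, 15.1% rose and 16.7% fell), and after senescent medium 2 rose and 5 fell (30.2%, with 14.6% that rose and 15.6% that fell). The fall of SMS after proliferative medium (-0.15 ± 0.05) lost its call without fresh library 1 or pre-treated proliferative library 1 (adjusted p = 0.0535 to 0.0696), and with the length trend removed (0.0544). The fall of AMD1 after senescent medium (-0.22 ± 0.07) lost its call without fresh library 3 or pre-treated senescent library 3 (adjusted p = 0.0672 to 0.0904).

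Between the pre-treated groups, edgeR called ODC1 alone among the 10, at 0.27 ± 0.07 higher after senescent medium (adjusted p = 0.0454), where 0.89% of all genes tested (171) were called (0.625% rose and 0.265% fell). The 3 senescent values (56.1, 63.0 and 69.9 CPM) lay above the 3 proliferative values (55.4, 52.3 and 49.3 CPM) by less than 1 CPM at the nearest. The call was lost without pre-treated proliferative library 2 or 3 or pre-treated senescent library 2 or 3 (adjusted p = 0.117 to 0.31), and in a fit of these 6 libraries alone (adjusted p = 0.34). It was also lost with library totals (0.056), RLE factors (0.0559) and limma (0.16). SMS was at 0.16 (95% interval 0.06 to 0.25, adjusted p = 0.13) and SAT1 at -0.14 (interval -0.23 to -0.06, adjusted p = 0.114), and neither passed. The fit of these 6 libraries called 35 genes, of which 57.1% rose, against 70.2% of the 171.

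The effect of senescent against proliferative medium was smaller in the pre-treated pair than in the direct pair for 5 members, by a test of the difference itself (an interaction contrast in edgeR). The difference, pre-treated minus direct, was -0.64 ± 0.10 for SRM (adjusted p = 2.09e-05), -0.52 ± 0.10 for ODC1 (0.000191) and -0.46 ± 0.10 for AMD1 (0.000724). It was -0.23 ± 0.06 for AZIN1 (adjusted p = 0.00877) and -0.19 ± 0.05 for OAZ1 (adjusted p = 0.00991). SMS, OAZ2 and the 3 breakdown genes were not called, and SAT1 was at -0.16 (95% interval -0.28 to -0.04, adjusted p = 0.0735). Thus 5 members were called, each with a lower effect in the pre-treated pair, where 13.8% of all genes tested were called (5.58% with a higher and 8.19% with a lower effect). With library totals the calls of AZIN1 (-0.16, adjusted p = 0.0759) and OAZ1 (-0.12, adjusted p = 0.118) were lost, and that of OAZ1 was lost with no low-count filter (-0.18, adjusted p = 0.059). With library totals 62.2% of the called genes were positive, against 40.5% with TMM factors. SAT1 passed without senescent library 3 (-0.19, adjusted p = 0.0318). The correlation of a library's deviations with gene length was 0.14 to 0.313 in the pre-treated libraries, and the difference in effect was called for the same number of members (5) with that trend removed.

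**Figure D4:**
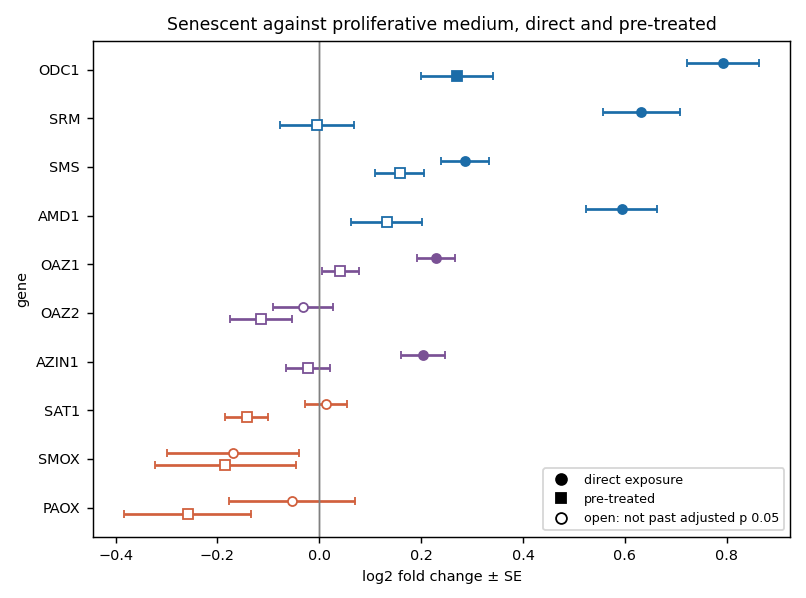
Log2 fold change of senescent against proliferative medium for the 10 genes in the direct pair and in the pre-treated pair, with the approximate SE as bars and open symbols where edgeR did not call the change. The synthesis genes ODC1, SRM and AMD1 lie at 0.59 to 0.79 in the direct pair and nearer 0 in the pre-treated pair.

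The transcripts of the enzymes at the head of synthesis and of breakdown were compared by the ratio of ODC1 to SAT1 in FPKM, with no test. This is a ratio of RNA, and the table holds no protein, enzyme activity or polyamine level. It was 0.431 ± 0.0333 (SD, n = 3) in fresh medium, 0.263 ± 0.0105 in senescent medium and 0.153 ± 0.00822 in proliferative medium. It was 0.203 ± 0.0141 with the large fraction, 0.128 ± 0.00372 with boiled medium and 0.104 ± 0.00581 with the small fraction. In pre-treated cells it was 0.179 ± 0.00331 after proliferative and 0.238 ± 0.0237 after senescent medium. The lowest fresh library (0.394) was above the highest library of any other group (0.272, in senescent medium). The ratio of AZIN1 to OAZ1 in FPKM spanned less, with group means from 0.183 ± 0.00943 (small fraction) to 0.230 ± 0.00434 (pre-treated with proliferative medium). That of SMOX to PAOX ran from 0.390 ± 0.0989 in fresh to 0.969 ± 0.143 in proliferative medium.

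**Figure D5:**
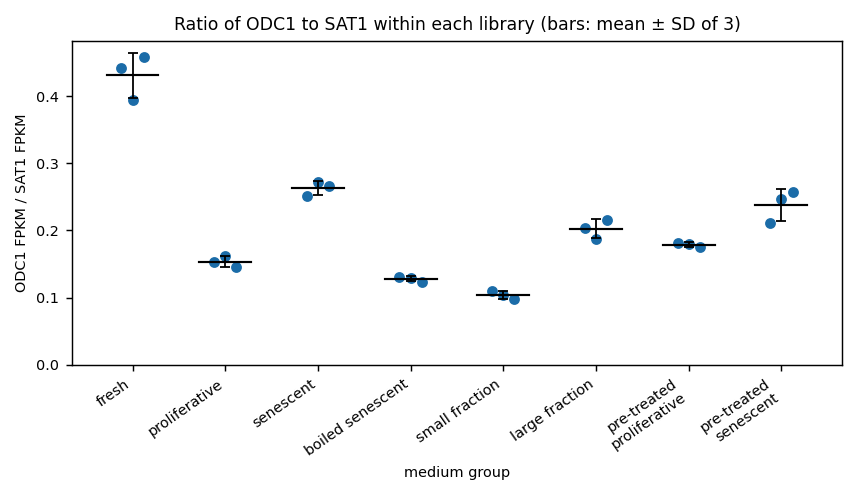
Ratio of ODC1 to SAT1 in FPKM by library (points) with the group mean and SD (n = 3 libraries per group). Fresh medium lies at 0.394 to 0.458, above the other 7 groups, and the small fraction lies lowest.

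The wider pathway was taken from a list of 33 further genes, of which 28 were tested: paralogs of the members, ornithine supply, S-adenosylmethionine supply and salvage, hypusination, transport, and transcription factors. With proliferative against fresh medium 2 of the 28 rose and 14 fell, where 20.6% of all genes tested rose and 21.5% fell, with a median change of -0.18 against 0.0046 for all genes tested. The 3 largest called changes were SAT2 (0.81 ± 0.11), a relative of SAT1, AGMAT (-0.79 ± 0.19), named as an agmatinase, and AZIN2 (0.75 ± 0.18), a second antizyme inhibitor. With senescent against proliferative medium 15 rose and 1 fell, where 16.6% of all genes tested rose and 12.4% fell, and the median change was 0.24 against -0.01 for all genes. AGMAT rose by 1.01 ± 0.19 and ARG2, the mitochondrial arginase that releases ornithine, by 0.55 ± 0.17, while DHPS, which makes the first step of the hypusine on EIF5A from spermidine, fell by 0.90 ± 0.26 at the low levels of 3.87 and 2.06 CPM. Without senescent library 3 the calls of ARG2 (0.46, adjusted p = 0.0718) and DHPS (-0.73, adjusted p = 0.0602) were lost. By group of genes, the rises and falls with proliferative against fresh medium were 2 and 0 of 3 paralogs, 0 and 2 of 4 in ornithine supply, 0 and 5 of 8 in S-adenosylmethionine supply and salvage, 0 and 1 of 4 in hypusination, 0 and 4 of 6 in transport and 0 and 2 of 3 transcription factors. With senescent against proliferative medium they were 0 and 0, 3 and 0, 5 and 0, 3 and 1, 3 and 0 and 1 and 0 in the same order. DHPS shares most of its span and its strand with AC010422.8 (52.08 and 47.58 counts per library on average), so its reads may be split by the counting and its fall is uncertain. Genes on the other strand overlap AGMAT (99.29 counts, beside 403.3 for DNAJC16), ARG2 (114.6 counts, beside 1410 for VTI1B) and DHPS (beside 66.42 for WDR83). Whether counting used strand is not known here.

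Against intact senescent medium, 2 of the 28 rose and 13 fell with boiled medium (25.9% of all genes tested were called), 2 rose and 14 fell with the small fraction (42.6%), and 2 rose and 8 fell with the large fraction (18.1%). Against fresh medium the rises and falls were 3 and 4 with senescent medium (33.6%), 3 and 11 with boiled medium (27.9%), 6 and 13 with the small fraction (44.6%) and 3 and 9 with the large fraction (26.9%). They were 3 and 11 after pre-treatment with proliferative medium (31.8%) and 0 and 13 after pre-treatment with senescent medium (30.2%). Between the fractions (small against large) 5 rose and 4 fell (35%). Between the fractions the share of the 28 that was called was near that of all genes (7 to 11 called with 1 library left out). With senescent against fresh medium it was lower with TMM factors (6 to 9 called with 1 library left out). In the pre-treated pair 0 of the 28 were called by edgeR (0.89%), 1 with DESeq2, and in the interaction contrast 8 were called (13.8%), all of them negative. For the large fraction against senescent medium 6 genes were called without large library 1, and 5 without large library 2 or without senescent library 1. With library totals the count was 12 for senescent against fresh medium and 5 for the interaction. Without fresh library 1 it was 7 for the large fraction against fresh medium.

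MYC and EIF5A, the protein that hypusine modifies, were picked from this list after their values were seen. MYC had group means of 109 CPM in fresh, 95.1 in proliferative, 126 in senescent and 94.9 in boiled medium, and of 70.1 CPM with the small and 120 CPM with the large fraction. Pre-treated cells had 93.0 CPM (proliferative) and 93.9 CPM (senescent). Against fresh medium, MYC fell by 0.19 ± 0.05 with proliferative medium, by 0.20 ± 0.05 with boiled medium, by 0.63 ± 0.05 with the small fraction, and by 0.22 ± 0.05 and 0.21 ± 0.05 after pre-treatment with proliferative and senescent medium. It rose by 0.21 ± 0.05 with senescent medium (adjusted p = 0.000714) and by 0.14 ± 0.05 with the large fraction (adjusted p = 0.0291), and ODC1 fell in both. Whether MYC had a part in the level of ODC1 or of any other member was not tested. The rise with the large fraction lost its call without fresh library 1 or 3 or large library 3 (adjusted p = 0.0526 to 0.166), with library totals (0.142) and with no low-count filter (0.0663). MYC rose by 0.41 ± 0.05 with senescent against proliferative medium (adjusted p = 1.63e-08). Against senescent medium it fell by 0.41 ± 0.05 with boiling and by 0.85 ± 0.05 with the small fraction (adjusted p = 4.83e-18), and it was at -0.07 with the large fraction (adjusted p = 0.337).

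EIF5A fell by 0.57 ± 0.04 with proliferative, by 0.26 ± 0.04 with boiled medium and by 0.55 ± 0.04 with the small fraction against fresh medium, and by 0.43 ± 0.04 and 0.31 ± 0.04 after pre-treatment with proliferative and senescent medium. With senescent against fresh medium it was at -0.07 (adjusted p = 0.222), and it was called with the length trend removed (-0.16, adjusted p = 0.00205) and with library totals (-0.14, adjusted p = 0.0102). Its fall with the large fraction (-0.12 ± 0.04) lost the call without fresh library 1 or 2 or large library 2 or 3 (adjusted p = 0.0905 to 0.118) and with no low-count filter (0.0999). EIF5A rose by 0.50 ± 0.04 with senescent against proliferative medium. Against senescent medium it fell by 0.19 ± 0.04 with boiled medium and by 0.48 ± 0.04 with the small fraction, and it was at -0.05 with the large fraction (adjusted p = 0.454).

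The genes whose group means were most like those of ODC1 were found among 4636 genes with a mean of at least 10 CPM and a range of at least 0.5 on the log2 scale. By Pearson's r over the 8 group means of log2 CPM they were ATAD2 (0.984), ARHGEF39 (0.983), C4orf46 (0.982), PM20D2 (0.982) and SH2D4A (0.981). Those most like SAT1 were SMIM19 (0.953), NBDY (0.953), ZNF32 (0.943), TGFBR2 (0.942) and CTHRC1 (0.94). Among the members, r was 0.726 for SAT1 with SMOX and -0.596 for ODC1 with SAT1. These are descriptions over 8 points from the same 24 libraries.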

How the data were processed

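The authors deposited 1 table with raw read counts per gene and FPKM for 24 libraries, as named in the file headers. These FPKM equal the counts over gene length over an effective library size, to a relative tolerance of 1e-04. Per the labels' protocols, polyA RNA was prepared with Trizol, a column and DNase, and the library kit was NEBNext Ultra 2. Per the submitters' processing notes, STAR 2.6.1, DESeq2 (version given as 2) and GRCh38 were used. Their roles, the read counter and the strand setting are not stated there.

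The quasi-likelihood test of edgeR 4.0.16 (R 4.3.3, robust, TMM factors) was run on the counts of all 24 libraries, with a mean for each group, which left 16 residual degrees of freedom. The filterByExpr function kept 19210 genes. Tests were two-sided, and Benjamini-Hochberg adjustment ran over these genes within each of 14 comparisons, with a threshold of 0.05. Steps between neighbours in a gene's order came from tests of all pairs of groups in the same fit, adjusted in the same way within each pair. The neighbours were set by sorting the group means of the same libraries. The printed SE is the log2 fold change over the square root of F and is approximate; intervals are 95%. CPM are counts brought to 1 depth by TMM scaling (prior count of 2 on the log2 scale). FPKM served where genes were compared with each other. The fit was tested on simulated counts with the same spread set for all genes and no trend on gene length. That setting is simpler than these libraries, so it does not show how the calls hold in them. The members and the gene lists were chosen with earlier results of these data known. Every member is described. Of the further pathway genes, the 3 called genes with the largest change were named for proliferative against fresh and for senescent against proliferative medium. No pair of libraries was a duplicate.

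Alternatives were RLE factors, library totals, no low-count filter, DESeq2 1.42.0, limma 3.58.1 on log2(FPKM + 1), a replicate block, the gene length trend removed (lowess span 0.3), the compared groups only, and each library left out in turn. Counting error and library number limit precision: low genes such as SMOX (178.8 counts per library on average) had wider spread than OAZ1 (7601).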

Additional observations from a re-analysis of the deposited data

Results flagged for a closer look

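For 5 members the effect of senescent against proliferative medium differed between cells given the medium directly and cells pre-treated with it, by a test of the difference itself (edgeR, pre-treated minus direct, log2 scale). The difference was -0.52 for ODC1, -0.64 for SRM, -0.46 for AMD1, -0.19 for OAZ1 and -0.23 for AZIN1. The direct effects were 0.79, 0.63, 0.59, 0.23 and 0.20 in the same order, and in the pre-treated pair the effect on ODC1 was 0.27 and the other 4 genes were not called. Over the other settings tried, the difference ran from -0.60 to -0.45 for ODC1, from -0.73 to -0.56 for SRM and from -0.52 to -0.39 for AMD1, and these calls held in all of them. The labels do not say what the pre-treated cells were given before harvest. The correlation of their libraries' deviations with gene length was of opposite sign to that of the senescent libraries (0.169 to 0.312 after senescent medium, against -0.396 to -0.271 in it). Its part in the difference was not tested beyond the fit with that trend removed.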

How the results depend on the processing

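Of 140 results for a member in a comparison, 88 were called. Over the alternatives, the called ones were computed again 1262 times: 1194 kept direction and call, 68 lost the call and 0 changed direction. The results that lost it are named in the report. The replicate number was tested as a block. Deviations of libraries with the same number had a mean r of -0.00736 over 84 pairs from different groups, 19 of them over 0.1. For different numbers the mean r was 0.003 over 168 pairs, 43 of them over 0.1. The same number thus gave no higher mean correlation, and the libraries were not treated as pairs.

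Genes called between the pre-treated groups went from 171 to 35 with the compared groups only, and to 99 to 149 with 1 library left out. Members called there went from 1 to 0 with the compared groups only, library totals, limma, the replicate block and RLE factors, to 2 with DESeq2, and were 0 to 1 with 1 library left out. Members called with the large fraction against senescent medium went from 5 to 3 with the length trend removed, to 2 with library totals and to 2 to 3 with 1 library left out. In the interaction contrast members called went from 5 to 3 with library totals. With the replicate block, the AMD1 rise with senescent against fresh medium had an adjusted p of 0.0593, and apart from that and the ODC1 call in the pre-treated pair (adjusted p = 0.0636) the block changed no call of a member.

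Changes of sign were seen in uncalled results only. With the length trend removed, SAT1 was at 0.0349 (large fraction against senescent), 0.0344 (small fraction against senescent) and -0.0229 (senescent against proliferative), and SMS was at -0.0212 for proliferative against fresh medium. With library totals, SAT1 was at -0.0619 (senescent against proliferative) and 0.0706 (small fraction against senescent). With 1 library left out, the range for senescent against proliferative was -0.0176 to 0.0478 for SAT1, -0.0707 to 0.0140 for OAZ2 and -0.136 to 0.0377 for PAOX. It was -0.0527 to 0.0127 for SAT1 (small fraction against senescent) and -0.110 to 0.0760 for PAOX (proliferative against fresh). EIF5A was at 0.0170 for the large fraction against senescent medium with the length trend removed. The causes were not tested. DESeq2 called SAT1 between the pre-treated groups (-0.15, adjusted p = 0.0291) and in the interaction (-0.16, adjusted p = 0.0461). No alternative moved the median change of all genes by more than 0.0881 in log2. Depth limits SMOX and PAOX most. The lack of calls for PAOX does not exclude a change within its intervals, and the smallest change of PAOX that could be detected was not estimated.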
